A study of Homo sapiens with 1 sample.

Results

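The human matrix metalloproteinases (MMP), the disintegrin metalloproteinases (ADAM), the ADAM relatives with thrombospondin repeats (ADAMTS) and the tissue inhibitors of metalloproteinases (TIMP) were examined for open chromatin in a kidney cancer line. Members were the protein-coding genes of GENCODE release 44 whose symbol is MMP, ADAM, ADAMTS or TIMP followed directly by a digit. This rule gave 67 of 20033 protein-coding genes, namely 4 TIMP, 23 MMP, 20 ADAM and 19 ADAMTS genes and MMP24OS. MMP24OS lies on the strand opposite to MMP24, encodes no protease and was kept because the symbol meets the rule.

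The data were ATAC-seq peaks from 1 library of 786-O, a widely used cell line of clear cell renal carcinoma, carrying a vector without insert as the control. The peak names in the file carry a wild-type tag in place of the vector, and the sample is described here by its label. ATAC-seq marks open DNA by the insertion of adapters by the Tn5 transposase. The study set this control beside cells that overexpressed DPF3a, a subunit of the SWI/SNF remodeling complex, which are not analysed here. With 1 library of 1 line there was no replicate and no comparison between groups, so no p-value is given and the values describe this library.

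A peak is a stretch of open chromatin, and its summit is the position of highest pileup of reads. The fold is the enrichment of the summit over the genome-wide background as the peak caller wrote it. Intervals beside a fold are 95% Poisson intervals of the pileup and cover counting error alone. The lowest fold in the list, 5.15, stands on a pileup of 9 and has an interval of 2.64 to 9.32. Promoters were taken as the 1 kb before and 100 bp after each annotated transcription start (TSS), whichever transcript it belonged to, and a gene-body summit lay inside the gene and outside the promoter of every gene. The canonical transcript is the reference transcript that the annotation picks for each gene.

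Metalloproteinases of these families cut proteins outside the cell and at its surface. MMPs are made as inactive precursors and degrade collagens, gelatin and other matrix proteins. ADAMs release the outer parts of membrane proteins, ADAMTS enzymes are secreted and process proteoglycans and procollagens, and TIMPs block the active sites of MMPs. Many MMP genes are known to be induced through AP-1, a dimer of FOS and JUN proteins that binds the letters TGACTCA.

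These letters, on either strand, were therefore looked for in the 50 bp to each side of every summit. Among 34 promoter summits of the members, 3 had them, at MMP7, MMP13 and MMP19. The MMP7 promoter is shown as an AP-1 match at a promoter of these families, and MMP10 is shown beside it as the strongest promoter summit of the chromosome 11 MMP genes. Sequences are in hg38 (GRCh38) and run 5′ to 3′, and capitals mark TGACTCA or its reverse complement TGAGTCA. Both genes are on the minus strand, so the plus-strand window of MMP10 reads opposite to transcription, whereas the RefSeq promoter of MMP7 (build GRCh38.p14) reads with it.
MMP7 promoter of RefSeq, chr11:102530698-102530997, minus strand: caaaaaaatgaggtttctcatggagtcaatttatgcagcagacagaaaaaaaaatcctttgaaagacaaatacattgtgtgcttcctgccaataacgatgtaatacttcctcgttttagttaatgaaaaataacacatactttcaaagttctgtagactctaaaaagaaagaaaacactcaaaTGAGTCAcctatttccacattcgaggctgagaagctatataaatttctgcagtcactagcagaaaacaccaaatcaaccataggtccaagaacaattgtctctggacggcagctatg
MMP10 promoter summit, chr11:102780557-102780657, plus strand: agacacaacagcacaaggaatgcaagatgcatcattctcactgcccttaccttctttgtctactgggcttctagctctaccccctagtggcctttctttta

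In MMP7, which encodes matrilysin, the AP-1 letters began 67 bp upstream of the RefSeq start and the summit lay 51 bp upstream of the canonical TSS. The summit of MMP13, which encodes collagenase-3, lay 47 bp upstream of its TSS and that of MMP19 35 bp upstream. These summits were weak, with folds of 6.18 (3.34 to 10.7) at MMP7, 9.28 (5.62 to 14.5) at MMP13 and 5.15 (2.64 to 9.32) at MMP19. MMP10, which encodes stromelysin-2, had a fold of 13.9 (9.27 to 20.1) at 21 bp downstream of the TSS, and its window had no AP-1 letters.

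The share of promoter summits with the AP-1 letters was 3 of 34 (8.82%; exact binomial 95% interval, 1.86 to 23.7), and it was 6.0% over the 17170 promoter summits of all genes. At gene bodies it was 33 of 190 (17.4%; 12.3 to 23.5), beside 17.1% over all gene-body summits of protein-coding genes. The background lay inside both intervals, and the one at promoters is wide. RefSeq promoters, which span 250 bp before to 50 bp after a start, were matched for 40 of the 67 members (41 promoters). Of these, MMP7 alone held the AP-1 letters, 1 of 41, whereas 4.95% of the 35116 RefSeq promoters of all gene kinds held them. A peak overlapped 15 of the 41 RefSeq promoters, and the overlapped share of all RefSeq promoters was not computed.

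At the level of genes, 28 of the 67 members (41.8%) had a promoter summit, compared with 61.4% of all protein-coding genes. In the promoter of the canonical transcript, a summit was found for 21 members, beside 52.2% of all genes. A gene-body summit was found for 38 members (56.7%), beside 49.7% of all genes. Of these, 21 members had a gene-body summit and no promoter summit (background 13.5%). No summit in either place was found for 18 members (26.9%), beside 25.1% of all genes.

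**Figure D1:**
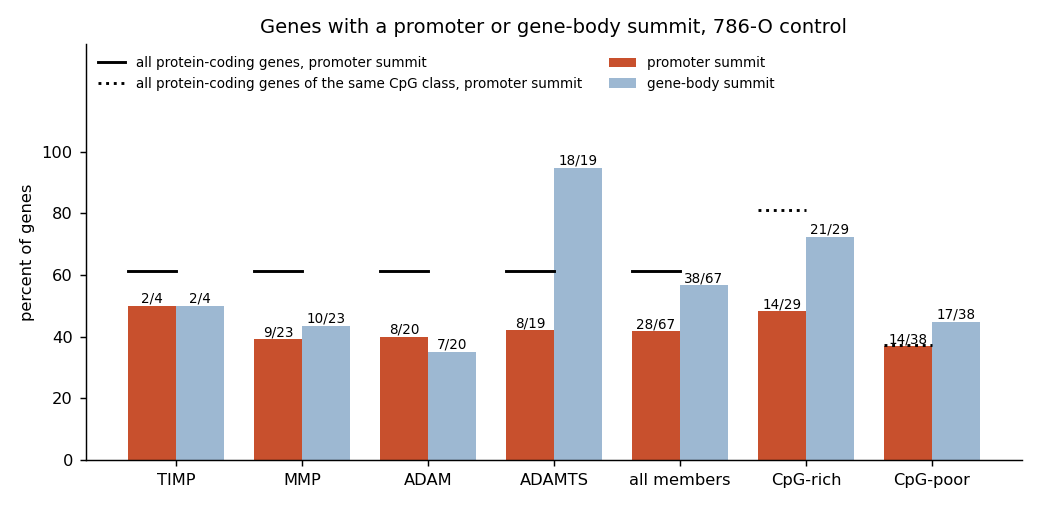
Percent of genes with a promoter summit (orange bars) and with a gene-body summit (blue bars) for each family, for all 67 genes and for the genes split by CpG content of the promoter; labels give counts, and black lines give the promoter share of all protein-coding genes or of all protein-coding genes of the same CpG class. ADAMTS genes had a gene-body summit in 18 of 19 cases, and the CpG-rich promoters had a summit in 14 of 29 cases, below the line at 81.1%.

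The promoter counts were close in the 4 families, with 2 of 4 TIMP, 9 of 23 MMP, 8 of 20 ADAM and 8 of 19 ADAMTS genes. Gene bodies separated them more, with summits in 18 of 19 ADAMTS, 10 of 23 MMP, 7 of 20 ADAM and 2 of 4 TIMP genes. Gene length goes with this order in part, as the median length was 172 kb for ADAMTS, 90.3 kb for ADAM, 33.6 kb for TIMP and 14.7 kb for MMP genes. ADAM genes did not follow it, and the 8 ADAMs of the reproductive tract, listed further on, had no gene-body summit. Among members of 100 kb or more, 18 of 22 had a gene-body summit, beside 90.1% of all genes of that length.

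Promoters rich in CpG are open in most cell types, so the members were also split by the CpG content of the canonical promoter. A promoter was called CpG-rich at an observed-to-expected CpG ratio of 0.6 or more. Of the members 29 of 67 were CpG-rich, beside 54.9% of all genes. Among these, 14 of 29 (48.3%) had a promoter summit, whereas 81.1% of all CpG-rich genes did. Among CpG-poor members, 14 of 38 (36.8%) had one, beside 37.4% of all CpG-poor genes. Within the classes, a lower promoter share of the members was thus seen in the CpG-rich class. The members also had a smaller part of CpG-rich promoters than all genes.

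For 6 members, MMP11, MMP28, ADAM2, ADAM18, ADAM32 and ADAMTS12, the sequence around the TSS has a second copy of at least 95% identity on an alternative sequence of hg38. None of the 6 had a promoter summit, and 28 of the other 61 members did. The copied stretches on the primary chromosomes held 0 summits for each of the 6 genes, over 20.1 kb at MMP11, 32.2 kb at MMP28, 98.5 kb at ADAM2, 150 kb at ADAM18, 182 kb at ADAM32 and 93.4 kb at ADAMTS12. Reads that fit several places score a low mapping quality, and the study removed such reads. The part of this in the missing summits was not tested.

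The 28 members with a promoter summit had a median highest fold of 14.7 (range, 5.15 to 74.7), compared with 25.8 over all protein-coding genes with one (interquartile range, 16.0 to 39.2). Only 9 of them reached the median of all genes, and 10 had a fold under 10. The family medians were 9.28 for MMP, 18.0 for ADAMTS and 33.5 for ADAM genes. Of the 21 members with a canonical promoter summit, 13 had it within 100 bp of the TSS, and this share was not computed over all genes.

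**Figure D2:**
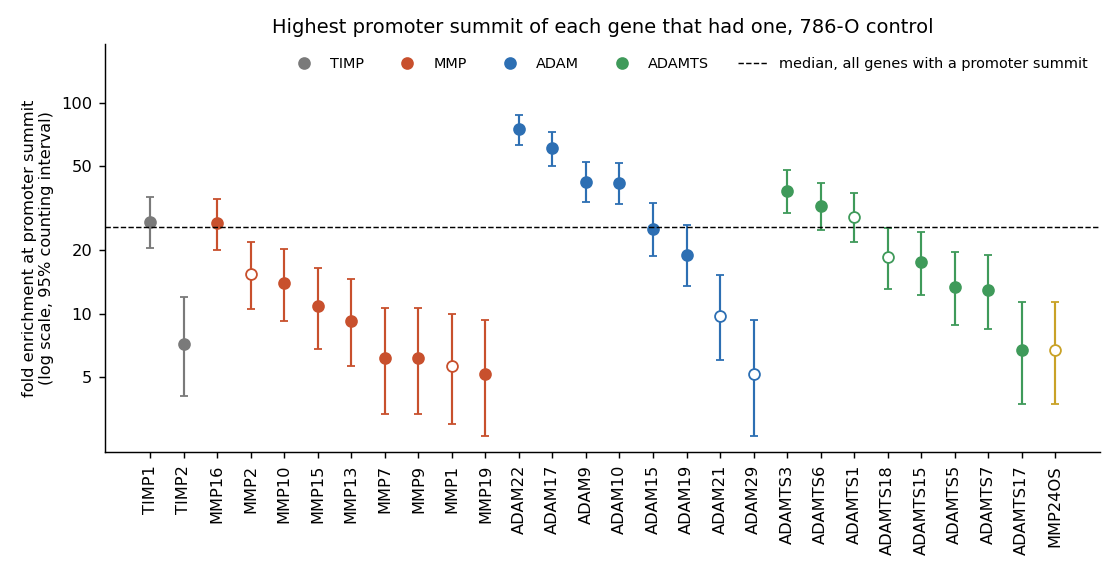
Fold enrichment at the highest promoter summit of each of the 28 genes that had one, on a log axis, with 95% counting intervals, colored by family; open circles are genes without a summit at the canonical TSS, and the dashed line is the median of 25.8 over all protein-coding genes with a promoter summit. ADAM22 at 74.7 and ADAM17 at 60.8 were the highest, and 5 of the 9 MMP genes were under 10.

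ADAM22 and ADAM17 had the highest folds of all members and TIMP1 the highest of the inhibitors, and none of these windows held the AP-1 letters, so they carry no capitals.
ADAM22 promoter summit, chr7:87934117-87934217, plus strand: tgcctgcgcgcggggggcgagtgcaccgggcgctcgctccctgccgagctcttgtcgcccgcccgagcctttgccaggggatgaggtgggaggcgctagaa
ADAM17 promoter summit, chr2:9555833-9555933, plus strand: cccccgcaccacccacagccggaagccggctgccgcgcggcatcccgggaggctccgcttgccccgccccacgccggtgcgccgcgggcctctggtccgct
TIMP1 promoter summit, chrX:47582276-47582376, plus strand: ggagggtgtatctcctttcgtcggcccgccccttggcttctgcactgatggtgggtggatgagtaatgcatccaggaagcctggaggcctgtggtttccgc

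The GC content of these windows was 73.3% at ADAM22, 81.2% at ADAM17 and 60.4% at TIMP1, whereas it was 36.6% at the MMP7 summit and 46.5% at MMP10. The canonical promoters of ADAM22 and ADAM17 were CpG-rich, with observed-to-expected ratios of 0.809 and 0.786, and those of TIMP1 (0.370), MMP7 (0.251) and MMP10 (0.207) were not.

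Among the inhibitors, TIMP1 had a promoter summit of fold 27.3 (20.5 to 35.7) at 110 bp upstream of the TSS and no gene-body summit. TIMP2, which also takes part in the activation of MMP2 at the cell surface, had a weak promoter summit of 7.21 (4.08 to 12.0) and 4 gene-body summits with folds of 10.3, 11.3, 31.9 and 50.5. TIMP2 was therefore more open within the gene than at its promoter. TIMP3, which binds the matrix and also inhibits ADAM17, had neither, and its nearest summit lay 4522 bp upstream at a fold of 6.70. TIMP4 had no promoter summit and 1 gene-body summit, 2893 bp downstream of the TSS, with a fold of 24.2 (17.9 to 32.1) and AP-1 letters. In the annotation TIMP1, TIMP3 and TIMP4 lie within the synapsin genes SYN1, SYN3 and SYN2 on the opposite strand, so a summit there can belong to either gene.

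The collagenases cut fibrillar collagen. MMP1, interstitial collagenase, had no summit at its canonical TSS. Its promoter summit lay 3590 bp downstream of it, at the TSS of a short transcript without a defined coding sequence, with a fold of 5.67 (2.99 to 9.99), and 1 gene-body summit had the same fold. MMP13 is described above, and MMP8, neutrophil collagenase, had no summit in promoter or gene body. Evidence at all 3 collagenases was thus absent or at low depth.

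The gelatinases, MMP2 and MMP9, degrade denatured collagen and basement membrane collagen. MMP2 had no summit in the window of its canonical TSS. A summit of fold 15.5 (10.5 to 22.0) lay 1380 bp downstream of it and 45 bp downstream of the start of another coding transcript. With promoters of 2.5 kb to both sides of each TSS, the highest promoter fold of MMP2 was 36.6, from the last of the gene-body summits that follow. Within the gene, 5 summits had folds of 15.5, 24.2, 14.9, 52.6 and 36.6, at -13.9, -7.47, 16.0, 21.0 and 24.1 kb from the canonical TSS. The first 2 are inside the gene record because some transcripts start far upstream. The highest, 52.6 (42.9 to 63.8), was above 97.2% of the summits of chromosome 16 and held RUNX and CAGA letters. MMP9 had weak values throughout, with a promoter summit of 6.18 (3.34 to 10.7) at 643 bp upstream and gene-body summits of 5.15 and 12.4.

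Of the stromelysins, MMP10 is described above. MMP3 had no summit in promoter or gene body, and its nearest summit was 7924 bp upstream with a fold of 24.2 (17.9 to 32.1) and AP-1 letters. MMP11 had none and is among the genes with a second copy. Of the matrilysins, MMP7 had the weak AP-1 summit and MMP26, on the other arm of chromosome 11, had 3 gene-body summits of up to 17.5 and no promoter summit.

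Membrane-type MMPs stay at the cell surface, where MMP14 activates the MMP2 precursor. MMP14 had no promoter summit, and its 1 gene-body summit lay 2238 bp downstream of the TSS with a fold of 10.3. The highest promoter fold of the group was 26.8 (20.1 to 35.1) at MMP16, and MMP15 had 10.8 (6.81 to 16.4). MMP17 and MMP24 had summits just outside the promoter window, at 918 and 482 bp downstream of the TSS with folds of 6.70 and 6.18, and MMP25 had no summit. MMP24 shared its 3 gene-body summits, of up to 31.4, with MMP24OS, which had 7 and a promoter summit of 6.70 at a non-canonical TSS. Of the other MMP genes, MMP19 had the promoter summit given above and MMP12, MMP20, MMP21, MMP23B, MMP27 and MMP28 had none. MMP28, epilysin, had 1 gene-body summit of 31.4 (24.1 to 40.3) at 31.3 kb downstream of the TSS.

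Of the 9 catalytic ADAMs outside the reproductive tract, 5 had a promoter summit, with a median fold of 41.7. ADAM17, the protease that releases tumor necrosis factor, had 60.8 (50.4 to 72.8). ADAM10, which cuts NOTCH receptors and amyloid precursor protein, had 41.7 (33.2 to 51.8), and ADAM9 had 42.3 (33.7 to 52.4) at a summit shared with the promoter of TM2D2. ADAM15 had 25.2 (18.8 to 33.3) and ADAM19 had 19.1 (13.5 to 26.2). The intervals of ADAM9 and ADAM10 overlapped and so did those of ADAM17 and ADAM9 at their ends. ADAM8, ADAM12, ADAM28 and ADAM33 had no promoter summit. ADAM8 had a summit of 12.9 at 1898 bp upstream, outside the window.

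ADAM11, ADAM22 and ADAM23 lack the catalytic site and act mostly in the nervous system, where ADAM22 is a receptor of LGI1. ADAM22 had the highest promoter fold of all 67 genes, 74.7 (63.1 to 87.9), on a pileup of 144 at 84 bp upstream of the TSS, and its interval overlapped that of ADAM17. Its 7 gene-body summits had folds of 5.67 to 23.7. Folds stand on a genome-wide background, and the upper decile of peak folds was highest on chromosome 7, at 45.3. Whether this bears on the rank of ADAM22 was not tested. ADAM11 and ADAM23 had no promoter summit, and their highest gene-body folds were 37.1 and 8.24. A promoter summit does not show that a gene is transcribed.

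The 8 ADAMs known from testis and epididymis had no summit at a canonical TSS and none in a gene body. For ADAM21 the promoter summit, 9.79 (6.01 to 15.2), lay 35.2 kb from the canonical TSS at the shared promoter of COX16 and SYNJ2BP. For ADAM29 it was at the lowest fold in the list, 5.15, and 89.4 kb from the canonical TSS. ADAM2, ADAM7, ADAM18, ADAM20, ADAM30 and ADAM32 had no summit at all, and 3 of these have a second copy. The nearest summit to the ADAM18 TSS was 411 kb away.

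Among the ADAMTS genes, the proteoglycanases cut aggrecan and versican. ADAMTS1 led them with 28.9 (21.9 to 37.4), and its summit lay 2296 bp downstream of the canonical TSS at the start of another coding transcript. The interval of that peak was 4615 bp long and reached over the canonical TSS. ADAMTS15 had 17.5 (12.2 to 24.4) and ADAMTS5, the main aggrecanase of cartilage, 13.4 (8.85 to 19.5). ADAMTS4, ADAMTS8, ADAMTS9 and ADAMTS20 had no promoter summit, although all 7 proteoglycanases had a gene-body summit. The nearest summit of ADAMTS9, 6.70 at 1010 bp upstream, was 10 bp beyond the window. ADAMTS1 and ADAMTS5 are neighbors on chromosome 21 with a gap of 72.5 kb that held 0 summits.

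The procollagen N-proteinases trim the amino-terminal propeptide of fibrillar collagens, and ADAMTS3 also processes VEGFC. ADAMTS3 had 3 promoter summits, with folds of 38.1 (30.0 to 47.8) at 1174 bp downstream of the canonical TSS, 31.4 (24.1 to 40.3) at 257 kb downstream and 21.1 (15.2 to 28.6) at 212 bp upstream. ADAMTS2 and ADAMTS14 had none at promoters and 9 and 5 in gene bodies. ADAMTS6 had a summit of 32.5 (25.0 to 41.5) 283 kb inside the gene at a non-canonical TSS, and its canonical promoter had 7.21 (4.08 to 12.0). ADAMTS18 had 18.6 (13.1 to 25.6) at a coding TSS 146 kb inside the gene and nothing at the canonical TSS. In these 3 genes the strongest promoter summit was thus away from the canonical start.

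The remaining ADAMTS genes were weaker at promoters. Of those that cut cartilage oligomeric matrix protein, ADAMTS7 had 12.9 (8.44 to 18.9) and ADAMTS12 had none, and ADAMTS12 has a second copy of its first part. ADAMTS13, which cuts von Willebrand factor, had none and 1 gene-body summit of 11.3. ADAMTS17 had 6.70 (3.71 to 11.3). ADAMTS10, ADAMTS16 and ADAMTS19 had no promoter summit, and ADAMTS10 was the ADAMTS gene without any summit.

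Gene bodies held 190 distinct summits of the members, or 3.01 per 100 kb when a summit in overlapping members is counted for each of them, beside 2.90 over all protein-coding genes. Their median fold was 10.3, beside 9.28 over all gene-body summits. A fold of 30 or more was reached by 32 of the 190 (16.8%), beside 10.0% of all. A pileup under 15 was found for 73 of the 190 (38.4%). In the canonical or another transcript, 13 of the 190 lay in an exon. The shares with such a pileup or in an exon were not computed over all gene-body summits.

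**Figure D3:**
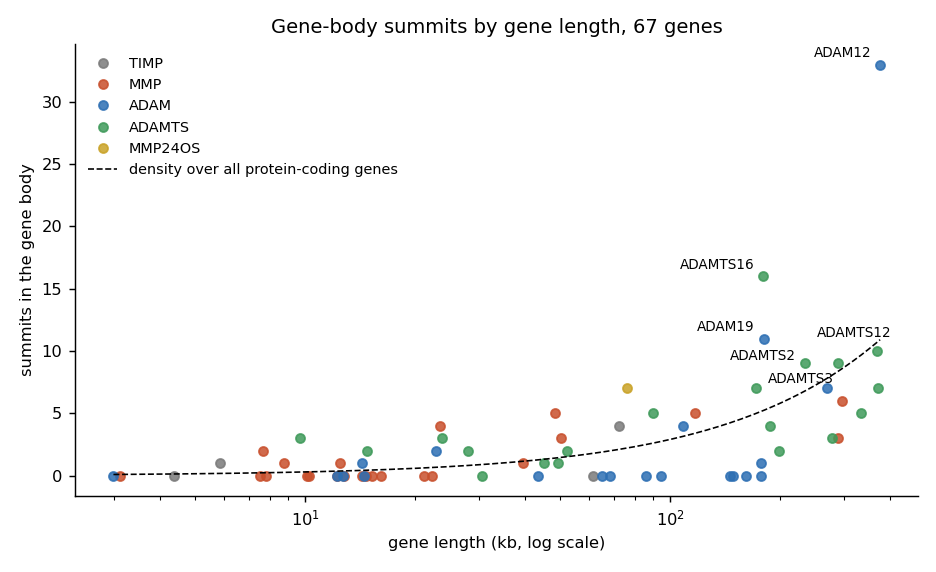
Number of gene-body summits of each of the 67 genes against gene length in kb on a log axis, colored by family, with the dashed line at the density of 2.90 summits per 100 kb over all protein-coding genes. ADAM12 with 33 and ADAMTS16 with 16 summits stood above the line, whereas several long ADAM genes had 0.

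ADAM12, a protease tied to the remodeling of muscle, fat and tumor stroma, had 33 gene-body summits in 376 kb, more than 98.5% of all genes of 100 kb or more. Those genes had a median of 5. Per 100 kb, ADAM12 had 8.77 summits, a density above that of 95.2% of those genes, and ADAMTS16 had 8.89 (above 95.5%). The 33 folds ran from 5.15 to 73.2 with a median of 17.0, and 10 of them were 30 or more. The highest were 73.2 (61.7 to 86.2) at 325 kb, 66.5 (55.5 to 78.9) at 37.8 kb, 62.9 (52.3 to 75.0) at 346 kb and 61.3 (50.8 to 73.3) at 141 kb downstream of the TSS. The AP-1 letters were near 8 of the 33 summits (24.2%), among them those of fold 61.3 and 56.2. ADAM12 had no promoter summit by the rule, as the nearest summit, 19.6 (13.9 to 26.8), lay 1290 bp downstream, but the interval of that peak reached over the TSS.

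**Figure D4:**
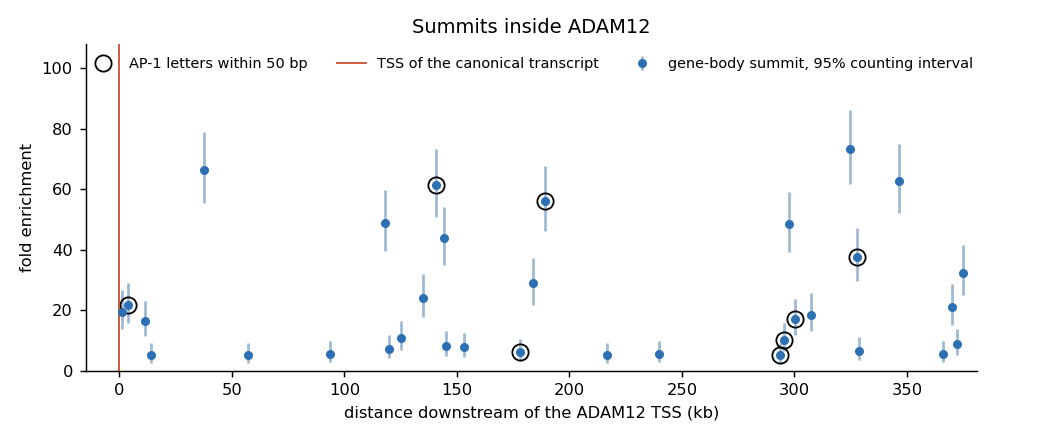
Fold enrichment of the 33 gene-body summits of ADAM12 against the distance downstream of the canonical TSS in kb, with 95% counting intervals; black rings mark the 8 summits with AP-1 letters, and the orange line is the TSS. Summits above a fold of 40 were spread from 37.8 kb to 346 kb inside the gene.

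ADAMTS16, an enzyme with a role in kidney and gonad development, had 16 gene-body summits in 180 kb and no promoter summit. They included the highest fold of any member summit, 78.3 (66.4 to 91.8) at 5.67 kb downstream of the TSS, and others of 51.5 at 25.5 kb and 47.4 at 131 kb. None of the 16 had AP-1 letters. ADAM19 had 11 gene-body summits of 5.15 to 37.1 and ADAMTS12 had 10, the highest of 46.9 at 103 kb. ADAMTS3 and ADAMTS2 had 9 each. In ADAMTS2 the highest were 58.2 (48.0 to 70.0), 46.9 and 35.0, at 69.3, 79.6 and 86.0 kb downstream of the TSS. ADAMTS18 had 4, the highest of 62.9 (52.3 to 75.0) at 136 kb.

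The MMP cluster on chromosome 11 holds 9 genes, in the order MMP7, MMP20, MMP27, MMP8, MMP10, MMP1, MMP3, MMP12 and MMP13, all on the minus strand. It spans chr11:102520508-102955732 (435 kb) and arose by gene duplication. There were 26 summits, or 59.7 per Mb, beside 30.7 per Mb over chromosome 11. The 100 kb before and after it held 8 and 7 summits, so the cluster was not denser than its flanks. The median fold was 11.9, beside 10.8 for the chromosome.

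Within the cluster 3 summits lay at promoters, 12 in gene bodies of any gene kind and 11 between genes. The promoter summits were those of MMP7, MMP10 and MMP1, and that of MMP13 lay 47 bp outside the cluster, so 4 of the 9 genes had one. MMP3, MMP8, MMP12, MMP20 and MMP27 had none. Only 8 of the 26 summits were inside an MMP gene, 5 of them in MMP20, which encodes the tooth enamel protease enamelysin. The strongest summits of the cluster were in or beside that gene, with 39.2 (30.9 to 49.0) and 30.9 (23.7 to 39.7) at 25.5 and 22.1 kb downstream of the MMP20 TSS and 31.4 (24.1 to 40.3) at 21.9 kb upstream of MMP7. Next were 24.2 at 7924 bp upstream of MMP3 and 23.2 at 25.6 kb downstream of the MMP13 TSS. The longest stretch without a summit was 66.9 kb and held MMP27 and MMP8.

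**Figure D5:**
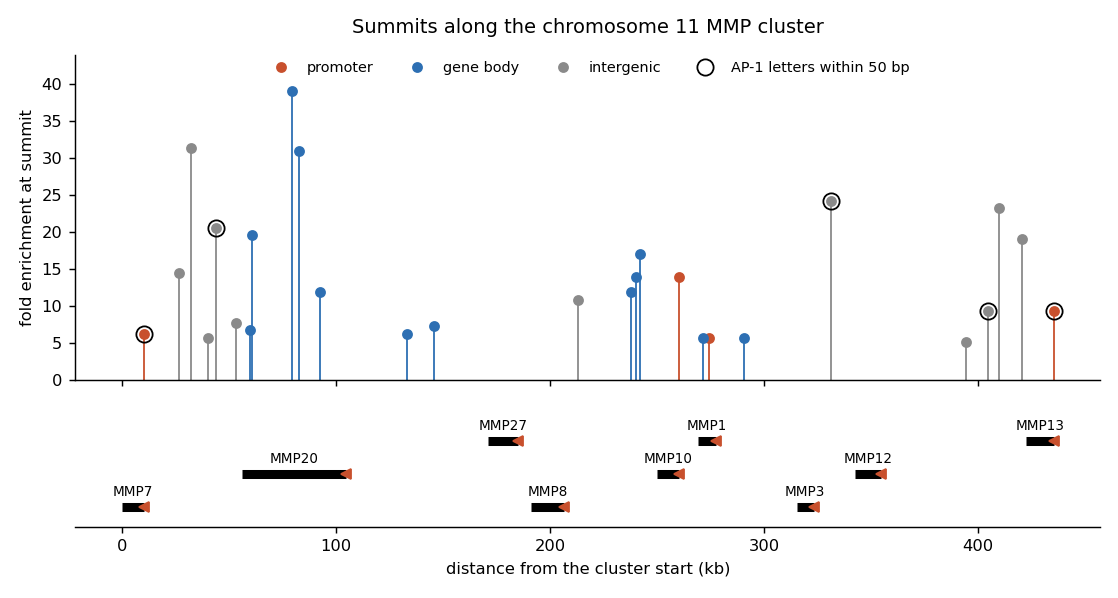
Fold enrichment of each summit along the chromosome 11 MMP cluster against the distance from its start in kb, colored by place, with black rings for AP-1 letters; bars below are the 9 MMP genes with an arrowhead at the 5′ end. The highest summits were in MMP20 at 39.2 and 30.9, and the MMP13 promoter summit is drawn 47 bp past the end.

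The AP-1 letters were near 4 of the 26 cluster summits (15.4%), beside 6.0% of all promoter summits and 17.1% of all gene-body summits. The share over all summits between genes was not computed. The match at MMP7 is shown above. The others lay between genes and are shown as the AP-1 sites of the cluster away from promoters, with capitals as before.
Between MMP7 and MMP20, chr11:102564297-102564397, plus strand: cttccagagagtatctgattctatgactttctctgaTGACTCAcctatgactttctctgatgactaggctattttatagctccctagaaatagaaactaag
Upstream of MMP3, chr11:102851483-102851583, plus strand: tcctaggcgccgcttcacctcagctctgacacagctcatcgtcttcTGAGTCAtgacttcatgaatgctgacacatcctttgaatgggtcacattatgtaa
Downstream of MMP13, chr11:102925128-102925228, plus strand: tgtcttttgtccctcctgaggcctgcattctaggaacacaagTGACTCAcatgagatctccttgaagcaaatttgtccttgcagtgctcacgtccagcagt

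The first lay 33.6 kb upstream of the MMP7 TSS with a fold of 20.6 (14.8 to 28.0), the second was the MMP3-upstream summit of 24.2, and the third lay 30.6 kb downstream of the MMP13 TSS with 9.28 (5.62 to 14.5). The strongest 3 summits of the cluster had no AP-1 letters.

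For the other motifs too, the background lay inside the exact binomial 95% interval of each member share, and with 34 promoter summits these intervals are wide. CAGACA, the CAGA element bound by SMAD proteins of TGF-β signaling, was near 4 of 34 promoter summits (11.8%; 3.30 to 27.5), beside 5.68% of all, and near 17 of 190 gene-body summits (8.95%), beside 8.74%. ACGTG, the core of the hypoxia response element, was near 4 promoter summits (11.8%), beside 9.17%, and 11 gene-body summits (5.79%), beside 6.65%. GGGCGGG of SP and KLF factors was near 6 promoter summits (17.6%), beside 17.7%. CCGGAAG of ETS factors was near 1 promoter summit, that of ADAM17 (2.94%), beside 5.11%. TGTGGTT of RUNX was near 13 gene-body summits (6.84%), beside 5.91%, and ACATTCC of TEAD near 5 (2.63%), beside 3.31%. Each motif was searched on both strands, and no motif holds another.

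Other genes of proteolysis at the cell surface were counted from a separate list of 26 genes. A promoter summit was found for 22 (84.6%), beside the 61.4% of all genes. All 8 rhomboid and tetraspanin partners that guide ADAM10 and ADAM17 to the surface had one, with folds from 5.15 at TSPAN15 to 64.4 at TSPAN17. All 4 proprotein convertases, which remove the propeptides of ADAM, ADAMTS and membrane-type MMP precursors, had one, the highest being 46.9 at PCSK5. RECK and BSG, cell-surface regulators of MMPs, had 11.3 and 19.1. In plasminogen activation, PLAUR (48.4), PLAU (35.6) and PLAT (16.0) had one and PLG and SERPINB2 did not. Of the ADAMTS-like genes, which encode no protease domain, 4 of 6 had one and ADAMTSL1 and ADAMTSL2 did not.

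The labelled cell type was checked against promoters of marker genes, which do not bear on the vector. The kidney lineage genes PAX8 (31.9) and PAX2 (22.7) and the mesenchymal gene VIM (47.9) had a promoter summit. CD3E and PTPRC of blood cells and ALB of liver had none. GFAP, an astrocyte gene, had a promoter summit of 36.1 at a non-canonical TSS, which goes against that marker list.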

How the data were processed

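Open chromatin of 786-O cells with an empty vector was profiled by ATAC-seq in 1 library. Per the study's methods and the submitters' processing notes, the authors used fastp for trimming and Bowtie2 2.3.4.3 for alignment to hg38, kept reads with a mapping quality of at least 30, removed mitochondrial reads and duplicates, and called peaks with MACS2 2.2.6 against a genome-wide background. A shift of reads to the Tn5 cut is not given in the sources used here, so summits may be off by some bases. The deposited ratio is the fold of the summit pileup over that background. The deposited −log10 p-values and −log10 q-values and the deposited score, which is made from the q-value, were used only through the score as a filter. Total reads are unknown; the pileup at a summit, 9 to 300, gives the depth behind each fold. Pileups were recovered from the folds with a background of 0.941 and were whole to within 1.83e-05. The lowest deposited score was 52, so a place without a listed summit may still hold weaker signal.

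Of 88676 peaks, 88615 lay on the 24 primary chromosomes and were placed by summit on GENCODE 44, and 61 lay elsewhere. The authors used an earlier GENCODE release for their RNA-seq. Members, gene lists, motifs and named genes were chosen with earlier results of these data known. All TIMP genes and chromosome 11 cluster genes are named, in each functional group the strongest promoter and the genes without one, the 5 members with most gene-body summits (6 with a tie), the 5 with the highest gene-body fold, those open only at a non-canonical TSS, MMP1 and MMP2. The CpG split was added after the data were seen. Genes are not replicates, so counts are given beside those over all protein-coding genes, without a test. Second copies of the 4001 bp around each TSS were found with minimap2 2.31 (at least 50% aligned at 95% identity). Python 3.11.15, numpy 2.4.6, pandas 2.3.3, scipy 1.17.1, pysam 0.24.0 and matplotlib 3.10.9 were used, and the placement and pileup functions were tested on simulated data. Alternatives were peak score, promoter width, choice of TSS, overlap in place of summit, gene-body rule and motif window. Some sequences and genes of the lists are not reported here.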

Additional observations from a re-analysis of the deposited data

Results flagged for a closer look

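Peaks on alternative sequences of hg38 were not used above. Of these, 1 peak lay inside the copy of ADAMTS12 on an alternative sequence of chromosome 5, with a fold of 14.9 (10.1 to 21.4) and a pileup of 28. Its summit is in a stretch of 2027 bp that the primary chromosome lacks, so it has no primary position. The library is itself the control of the study, and the value is above the lowest fold of the list, 5.15. The 93.4 kb of ADAMTS12 that the sequences share had 0 summits on the primary chromosome, and the cause was not tested.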

How the results depend on the processing

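No paired analysis was possible because the data came from 1 library without groups to compare, and no replicate could be left out. The peak score moved the counts most. With a score above 100, the median promoter fold was 22.2, the cluster held 17 summits and 2 of its genes had a promoter summit. With a score above 200, 17 of the 67 members had a promoter summit, whereas 52.0% of all genes did. At that score the median fold was 26.8, 24 members had a gene-body summit and 33 had no summit. The cluster then held 14 summits with 1 gene having a promoter summit, MMP10. Leaving out weak summits raises such a median for any genes. The median, gene-body and no-summit values of all genes were not computed at these scores. The weak promoter summits of MMP1, MMP7, MMP9, MMP19, TIMP2, ADAM29, ADAMTS17 and MMP24OS did not pass the score of 100. Widening the motif search to 100 bp or to the whole peak raised the AP-1 share of all 224 member summits from 16.1% to 22.3% and 36.2%. A wider search raises such a share for any set of summits, and the shares over all summits were not computed at these widths. A promoter of 2.5 kb to both sides gave 41 members, beside 70.3% of all genes, gained ADAM12 and MMP14 among 13, and moved the promoter fold of MMP2 from 15.5 to 36.6 and that of MMP24OS from 6.70 to 15.5. With canonical or protein-coding transcripts alone, ADAMTS3 moved from 38.1 to 21.1 and ADAMTS6 from 32.5 to 7.21. The canonical TSS alone gave 21 and 1 TSS per gene record also gave 21, beside 52.2% and 42.3% of all genes, and without summits at the promoter of another coding gene 26 remained, beside 48.8%. These last and the removal of MMP24OS were within 1.5 times the values reported; the latter 2 were chosen after seeing the data. At a pileup of 9 to 11 a missing summit may reflect depth and does not show closed chromatin.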
